A study of Mus musculus with 40 samples.

Results

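The HoxC cluster genes are 9 of the 55536 genes annotated in the mouse genome, of which 22028 are protein-coding. They are Hoxc4, Hoxc5, Hoxc6, Hoxc8, Hoxc9, Hoxc10, Hoxc11, Hoxc12 and Hoxc13, and they were chosen by name, with no measured value. Peaks of 2 histone marks, H3K27me3 and H3K4me3, were read at their promoters and along the cluster. A promoter was the window from 2000 bp before to 1000 bp after a transcript start in GENCODE M21, on GRCm38 (the assembly also called mm10), and the 9 genes have 15 of them. All 9 genes lie on the plus strand of chr15:102921103-103036852, a stretch of 116 kb that begins with Hoxc13 and ends with Hoxc4. It also holds 7 non-coding genes, among them Hotair, Mir196a-2 and Mir615.

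Hox genes encode homeodomain transcription factors that give cells their position along the head to tail axis, and their order on the chromosome follows the order of their anterior limits in the body. HoxC genes act mainly in the neck, trunk and limbs and pattern motor neurons of the spinal cord. Where Hox genes are off, Polycomb repressive complex 2 writes H3K27me3, a mark of silent genes, over whole clusters. H3K4me3 marks promoters that are active or open to activation, and a promoter with both marks is called bivalent. H3.3 K27M is a histone mutation of diffuse midline glioma that inhibits Polycomb repressive complex 2.

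The cells were oligodendrocyte precursor cells (OPCs) of mice at postnatal days 5 to 7, kept in proliferation medium and taken with no differentiation. K27M mice carried a conditional K27M allele of the histone gene H3-3a that was switched on by Cre under the human GFAP promoter, a driver active in neural stem and progenitor cells, so that many brain lineages recombine. Littermates served as controls. The methods for single cells of the same cross describe littermate controls as having no Cre and, because of the stop cassette, H3-3a expression from 1 allele. Brainstem and dorsal telencephalon (cortex, corpus callosum and hippocampus, labelled cortex) were pooled by region and genotype within litters, and OPCs were taken by panning on an antibody to PDGFRa. A culture is therefore a pool of animals. Each mark was measured in 2 brainstem cultures (59 and 61) and 3 telencephalon cultures (59, 60 and 61) of each genotype, which makes 10 libraries a mark and 5 pairs, each joining K27M and control cultures of 1 number. The 5 pairs rest on 3 culture numbers. Both regions were dissected from the same litters, so brainstem and telencephalon cultures of 1 number may share animals, and tests over 5 pairs count them as separate.

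The lists held 4739 to 64808 H3K27me3 peaks and 20961 to 31200 H3K4me3 peaks a library. The 6 OPC and oligodendrocyte lineage markers examined (Pdgfra, Cspg4, Sox10, Olig1, Olig2 and Nkx2-2) had an H3K4me3 promoter peak in all 10 libraries. Of 4 markers each for microglia and endothelial cells, 3 and 2 had none in any library, whereas all 4 neuron markers had one in all 10. Of 4 astrocyte markers, 1 had an H3K4me3 promoter peak in all 10 libraries and the other 3 in some. The telencephalon libraries of culture 59 stood apart in H3K4me3. Over the 12740 protein-coding genes with an H3K4me3 promoter peak in all 10 libraries, the median fold enrichment was 4.13 and 6.69 in these control and K27M libraries. It was 12.2 to 21.3 in the brainstem, 69.1 and 53.9 in telencephalon controls 60 and 61, and 34.1 and 34.4 in the K27M cultures of the same numbers.

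Sequence of the places on which the results turn is shown from the plus strand of GRCm38.p6, with each CG dinucleotide (CpG) in capitals and none of the stretches within an annotated exon. The first is the core of the strongest H3K4me3 peak in the cluster, within a Hoxc6 intron. The second is an intron of Hoxc4 under the longest H3K4me3 peaks of the cluster, both in brainstem K27M cultures. The others are the 200 bp before the starts of Hoxc13, which carried H3K4me3 peaks in some telencephalon controls, and of Hoxc12, which carried none.
Hoxc6 intron, chr15:102999257-102999456: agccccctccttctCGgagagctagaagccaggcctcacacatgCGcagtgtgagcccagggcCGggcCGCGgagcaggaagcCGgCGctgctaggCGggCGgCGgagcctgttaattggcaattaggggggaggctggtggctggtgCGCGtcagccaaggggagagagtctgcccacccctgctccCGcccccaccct
Hoxc4 intron, chr15:103035376-103035575: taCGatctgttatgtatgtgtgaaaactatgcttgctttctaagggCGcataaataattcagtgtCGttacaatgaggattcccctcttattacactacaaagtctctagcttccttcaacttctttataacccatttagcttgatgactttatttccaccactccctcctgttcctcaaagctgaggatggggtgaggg
Hoxc13 upstream, chr15:102920903-102921102: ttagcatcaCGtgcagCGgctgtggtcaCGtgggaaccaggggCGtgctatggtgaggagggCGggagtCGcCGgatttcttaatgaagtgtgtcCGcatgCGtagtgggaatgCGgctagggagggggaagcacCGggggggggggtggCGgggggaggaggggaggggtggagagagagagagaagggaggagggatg
Hoxc12 upstream, chr15:102936557-102936756: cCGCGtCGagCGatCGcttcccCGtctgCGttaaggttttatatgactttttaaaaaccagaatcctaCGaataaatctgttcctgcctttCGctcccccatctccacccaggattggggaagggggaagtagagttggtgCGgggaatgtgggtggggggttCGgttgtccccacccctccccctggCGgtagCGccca
These stretches hold 13 CpG for Hoxc6, 3 for Hoxc4, 12 for Hoxc13 and 13 for Hoxc12. The Hoxc4 stretch was the poorest in CpG, and the Hoxc12 stretch, with no H3K4me3, held as many as the Hoxc6 stretch under the strongest peak.

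In the H3K27me3 lists, 1 unbroken broad peak lay over the whole HoxC cluster in each of the 10 libraries, so that 100% of the cluster and all 9 genes were covered in both regions and both genotypes. A promoter peak in all 10 libraries was found at 5.77% of protein-coding genes and at 3.28% of all annotated genes. The segment common to the 10 peaks was chr15:102894635-103072700, 178 kb long. Since coverage was complete everywhere, the differences in covered cluster length and in the number of covered genes were 0 in every pair and between the regions, and the libraries could differ only in how far the peak ran beyond the genes and in how strong it was.

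The peak was 256 and 202 kb long in brainstem controls 59 and 61, and 187 and 215 kb in the K27M cultures of the same numbers. In telencephalon cultures 59, 60 and 61 it was 195, 253 and 227 kb in controls and 178, 200 and 194 kb in K27M. It was the longest H3K27me3 peak of the list in 8 of the 10 libraries, and ranked 2 and 3 in brainstem control 59 and telencephalon control 61. It made up 0.149% to 1.34% of all base pairs under H3K27me3 peaks. K27M peaks were shorter in 4 of 5 pairs, by a mean log2 difference of -0.21 ± 0.21 (SD, n = 5 pairs, two-sided exact sign-flip permutation test, p = 0.125), and were longer in brainstem pair 61. With 5 pairs this test cannot give a p below 0.063. The measure of peak length and those of the edges below were added after seeing the data.

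The edges on the Hoxc13 side differed more evenly than the total length. In controls the peak began 42.0 and 44.3 kb before Hoxc13 in brainstem cultures 59 and 61, and 38.2, 40.1 and 42.2 kb before it in telencephalon cultures 59, 60 and 61. In K27M it began 33.8 and 30.8 kb before Hoxc13 in the brainstem and 26.5, 29.2 and 27.4 kb before it in the telencephalon. The 5 control values lay above all 5 K27M values. The mean difference, K27M minus control, was -11.8 ± 2.51 kb (SD, n = 5 pairs, nearer in 5 of 5, exact sign-flip permutation p = 0.063). Of 816 protein-coding genes with a start under an H3K27me3 peak in all 10 libraries, 6.74% had an edge at the lower coordinate that was nearer in every K27M library than in every control library. The 9 HoxC genes are among them through 1 shared peak and count as 1 observation.

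On the Hoxc4 side the edges were scattered. The peak ended 97.9 and 41.6 kb after Hoxc4 in brainstem controls 59 and 61, and 37.4 and 68.3 kb after it in the K27M cultures. In the telencephalon it ended 40.8, 97.1 and 69.2 kb after Hoxc4 in controls 59, 60 and 61, and 35.8, 54.9 and 50.4 kb after it in K27M. The genotypes overlapped, and the mean difference was -19.9 ± 33.7 kb (SD, n = 5 pairs, nearer in 4 of 5, exact sign-flip permutation p = 0.3125). The background share for this edge was 5.15%.

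**Figure D1:**
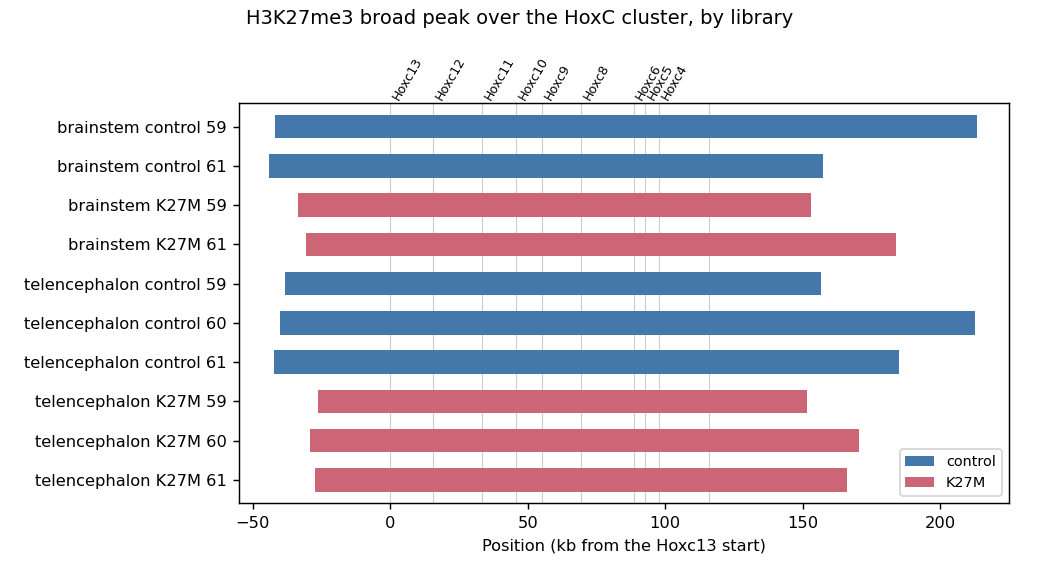
Extent of the H3K27me3 broad peak over the HoxC cluster in each of the 10 libraries (rows), in kb from the Hoxc13 start; bars run from the start to the end of the peak, blue for control and red for K27M, and grey lines mark the protein-coding gene starts and the cluster end. On the Hoxc13 side every blue bar reaches at least 38.2 kb out and no red bar beyond 33.8 kb.

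The strength of the peak, given as the fold enrichment over input listed for it, was 10.1 and 9.78 in brainstem controls 59 and 61, against 24.3 and 28.2 in K27M. In telencephalon cultures 59, 60 and 61 it was 5.75, 17.2 and 11.9 in controls, against 10.7, 26.5 and 29.5 in K27M. K27M was higher in each pair, by 2.40- and 2.88-fold in brainstem pairs 59 and 61 and by 1.86-, 1.54- and 2.47-fold in telencephalon pairs 59, 60 and 61. The genotypes were apart within the brainstem, and in the telencephalon K27M culture 59 lay below controls 60 and 61. The mean log2 difference was 1.12 ± 0.36 (SD, n = 5 pairs, higher in 5 of 5, exact sign-flip permutation p = 0.063).

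Higher enrichment under K27M was also common elsewhere. Among the 1272 protein-coding genes with an H3K27me3 promoter peak in all 10 libraries, 42.2% were higher in 5 of 5 pairs, and the median of their mean log2 differences was 0.33 (quartiles -0.01 to 0.89), below the 1.12 of the HoxC peak. Divided by the median fold enrichment of all H3K27me3 peaks in the same list, the HoxC peak stood at 4.38 and 3.46 in brainstem controls and 8.53 and 8.90 in brainstem K27M cultures. In telencephalon cultures 59, 60 and 61 this ratio was 2.30, 6.87 and 5.20 in controls and 4.07, 9.99 and 9.40 in K27M. On this scale the mean log2 difference was 0.91, and it was 0.81 when each value was divided by the median of the 1272 genes. The lists of K27M cultures were also shorter than those of their matched controls in all 5 pairs, with 13.3 to 41.4 Mb covered against 26.5 to 152 Mb, and the part of this in the enrichment was not tested. Fold enrichment was not scaled to the spiked-in fly chromatin, so it gives no absolute amount of the mark.

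**Figure D2:**
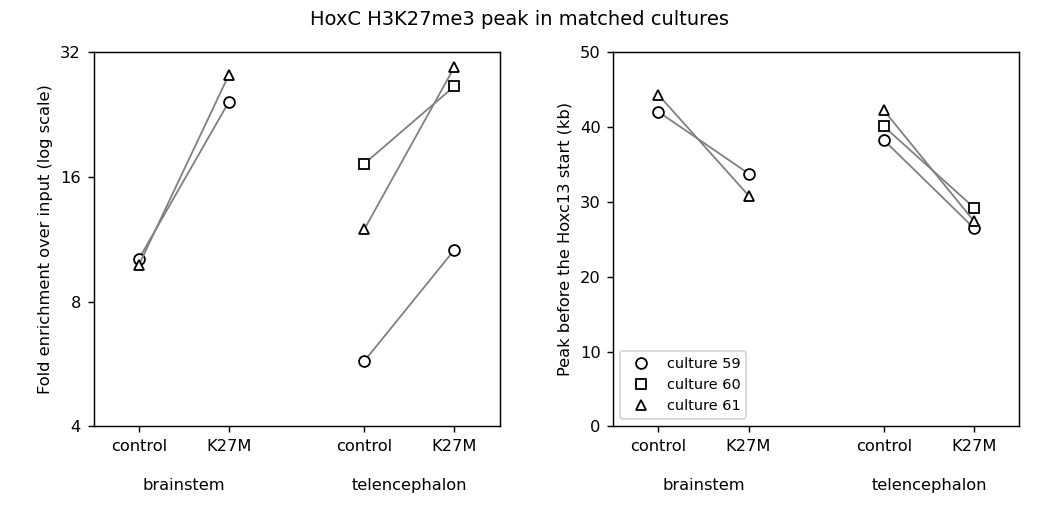
The HoxC H3K27me3 peak in matched cultures, with lines joining the control and the K27M culture of a pair and symbols giving the culture number; left, fold enrichment over input on a log scale, and right, kb of peak before the Hoxc13 start. All 5 lines run upward on the left, from controls at 5.75 to 17.2 to K27M cultures at 10.7 to 29.5, and all 5 run downward on the right.

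H3K4me3 was sparse in the cluster, and the 3 telencephalon controls spread as widely in covered length as all 10 libraries together. H3K4me3 peaks covered 1059 and 1311 bp of the cluster in brainstem controls 59 and 61, and 4752 and 3205 bp in brainstem K27M cultures 59 and 61. In the telencephalon they covered 0, 7076 and 6500 bp in controls 59, 60 and 61 and 0 bp in all 3 K27M cultures. The brainstem K27M cultures were above the brainstem controls, and telencephalon controls 60 and 61 were above every other library. Over all pairs the difference K27M minus control was -1598 ± 4919 bp (SD, n = 5 pairs, higher in 2, lower in 2, exact sign-flip permutation p = 0.5). Both brainstem pairs were higher in K27M, telencephalon pairs 60 and 61 were lower, and telencephalon pair 59 was 0 in both genotypes.

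These counts can be read against genes in the same H3K27me3 state. Of the 1272 protein-coding genes with H3K27me3 at a promoter in all 10 libraries, 83.3% and 78.1% also had an H3K4me3 promoter peak in brainstem controls 59 and 61, where 1 and 2 of the 9 HoxC genes had one. In brainstem K27M cultures 59 and 61 the shares were 82.2% and 71.2%, with 3 and 2 HoxC genes. In telencephalon controls 59, 60 and 61 they were 51.8%, 92.8% and 93.4%, with 0, 7 and 7 HoxC genes. In telencephalon K27M cultures they were 60.6%, 81.6% and 83.1%, with 0 HoxC genes in each. An H3K4me3 peak in all 10 libraries was found at 57.8% of protein-coding genes and at 0 of the 9.

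Between regions, telencephalon controls covered 3340 bp more than brainstem controls on average (exact permutation over the 10 splits of 5 cultures, p = 0.4), and the brainstem values lay within the telencephalon range. Among K27M cultures the difference telencephalon minus brainstem was -3978.5 bp (exact permutation p = 0.1, the smallest that 2 cultures against 3 allow). In genes with a promoter peak, the difference K27M minus control was -2.4 ± 4.28 (SD, n = 5 pairs, exact sign-flip permutation p = 0.5), and telencephalon controls had 3.17 more genes than brainstem controls (exact permutation p = 0.4).

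**Figure D3:**
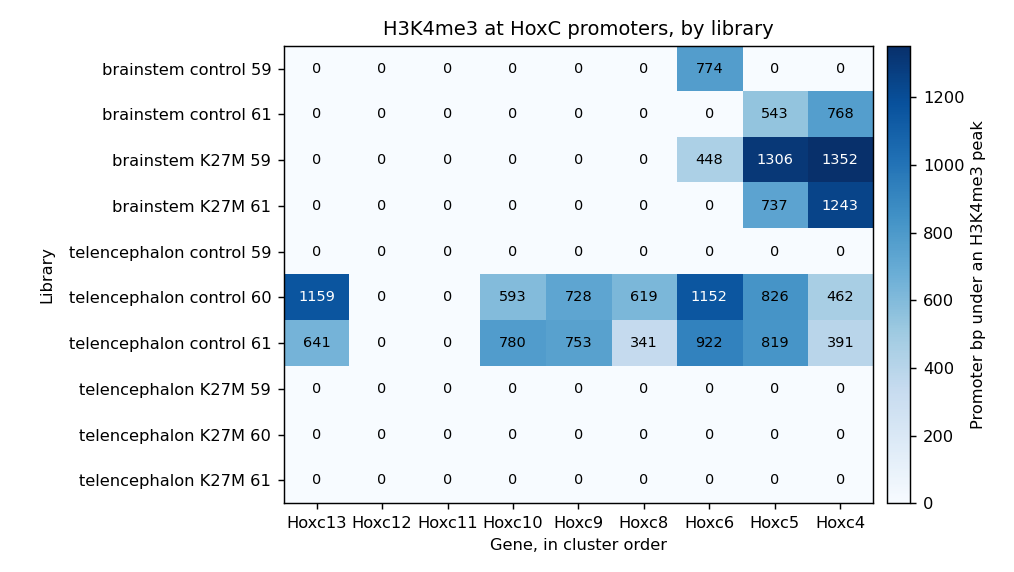
Base pairs of promoter under an H3K4me3 peak for each HoxC gene (columns, from Hoxc13 to Hoxc4, with the best covered promoter of a gene) in each of the 10 libraries (rows). The 2 rows of telencephalon controls 60 and 61 are filled at 7 genes, the brainstem rows only at Hoxc6, Hoxc5 and Hoxc4, and Hoxc12 and Hoxc11 are 0 in all rows.

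The genes fell into 3 sets by H3K4me3. Hoxc4, Hoxc5 and Hoxc6, which act in the neck and at the level of the forelimb, had promoter peaks in both regions. Hoxc8, Hoxc9, Hoxc10 and Hoxc13 had them only in telencephalon controls 60 and 61. Hoxc11 and Hoxc12 had none in any of the 10 libraries.

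Hoxc4 (chr15:103018934-103036852), the member at the anterior end, had H3K4me3 at the promoter of Hoxc4-201 and none at that of Hoxc4-202, whose start lies upstream. At Hoxc4-201, 0 and 768 bp were covered in brainstem controls 59 and 61, and 1352 and 1243 bp in brainstem K27M cultures. In the telencephalon the values were 0, 462 and 391 bp in controls 59, 60 and 61 and 0 bp in K27M. Both brainstem K27M cultures exceeded every other library, with a fold enrichment of 9.05 and 5.87 against at most 4.48, in telencephalon control 60. The whole island, on chr15:103034043-103036753, was 2711 bp in brainstem K27M culture 59 and 2468 bp in culture 61, and at most 768 bp in the others.

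Hoxc5 (chr15:102967443-103017429) showed H3K4me3 in the same 5 libraries as Hoxc4. Its protein-coding transcript Hoxc5-201 was covered over 0 and 543 bp in brainstem controls 59 and 61, 1306 and 737 bp in brainstem K27M cultures, and 826 and 819 bp in telencephalon controls 60 and 61. Telencephalon control 59 and the 3 telencephalon K27M cultures had 0 bp. Fold enrichment was highest in telencephalon controls 60 and 61, at 11.3 and 8.02, against 6.84 and 3.63 in brainstem K27M cultures 59 and 61 and 3.07 in brainstem control 61. Hoxc4 and Hoxc5 were the 2 members marked in both brainstem K27M cultures but in none of the 3 from the telencephalon, a pattern of 0.0908% of protein-coding genes (20 of 22028). It was not particular to HoxC. In HoxB, another Hox cluster, 7 of 10 genes had H3K4me3 in each brainstem K27M culture and 0 in each telencephalon K27M culture. The promoter of Hoxc5-202, a processed transcript that starts within Hoxc10, overlaps the Hoxc10 promoter and shared its peaks.

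Hoxc6 (chr15:102998257-103011881) held the strongest H3K4me3 peak of the cluster, the island whose core is printed above. It lay on chr15:102998910-103000061, in an intron of Hoxc6, under the promoters of its 2 processed transcripts. Its fold enrichment was 22.0 and 20.2 in telencephalon controls 60 and 61, 9.10 in brainstem control 59 and 5.55 in brainstem K27M culture 59. The other 6 libraries had no peak there, and both brainstem cultures numbered 61 were among them. No library had H3K4me3 at the promoter of the protein-coding Hoxc6-201.

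In the middle of the cluster, Hoxc8 and Hoxc9, which specify brachial and thoracic motor neurons, and Hoxc10, which acts at lumbar level, had weaker peaks. Hoxc8 (chr15:102990607-102994111) was covered over 619 and 341 bp in telencephalon controls 60 and 61, at a fold enrichment of 5.97 and 4.81. Hoxc9 (chr15:102976439-102985099) was covered over 728 and 753 bp, at 4.90 and 6.53, and Hoxc10 (chr15:102966796-102971893) over 593 and 780 bp, at 7.09 and 4.78. The other 8 libraries had 0 bp at all 3 genes. A second Hoxc9 island, centred 4898.5 bp after the Hoxc9-201 start, also had a peak in brainstem control 59 (285 bp, fold enrichment 3.82), outside the promoter window.

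At the posterior end, Hoxc13 (chr15:102921103-102928814), known for its role in hair and nails, was covered over 1159 and 641 bp in telencephalon controls 60 and 61, at a fold enrichment of 6.54 and 3.41, and over 0 bp in the rest. Hoxc12 (chr15:102936757-102938609) and Hoxc11 (chr15:102954427-102957708) had no promoter peak. Around them there were 2 islands outside the promoter windows. One lay on chr15:102942539-102943436 between Hoxc12 and Hotair in telencephalon controls 60 and 61 (fold enrichment 7.52 and 5.36), and the other in a Hoxc11 exon in control 61 alone (2.95).

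Telencephalon pairs 60 and 61 thus gave the widest contrast, with 7 of 9 genes marked in both controls and in neither K27M culture. The same pattern was found at 0.962% of protein-coding genes, and at 7.78% of the 1272 with H3K27me3 in all 10 libraries. Of these 1272 genes, 91.5% carried H3K4me3 in both controls, and 81.6% and 83.1% carried it in K27M cultures 60 and 61, where no HoxC gene did. Pair 59 of the telencephalon had no HoxC peak in either genotype, so a peak in every telencephalon control and in no telencephalon K27M culture was found at none of the 9 genes and at 0% of protein-coding genes.

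H3K4me3 enrichment as a whole moved with this contrast. The median over the 12740 constantly marked genes was 69.1 and 53.9 in telencephalon controls 60 and 61 and 34.1 and 34.4 in the K27M cultures. The lowest fold enrichment of any listed peak was close between them, at 2.26 and 2.12 in those controls and 2.16 and 2.03 in those K27M cultures. Like the median, islands beyond Hoxc4 that were present in both genotypes were lower in these K27M cultures. The island at the start of the long non-coding gene D930007P13Rik had a fold enrichment of 42.0 and 28.1 in controls 60 and 61 and 14.1 and 21.4 in K27M. In the study's own list of reads, telencephalon controls 60 and 61 had the highest shares of duplicate reads among the H3K4me3 libraries. The peak caller was set to keep duplicates, and the methods do not say whether they were removed before that step. With each list held to the 20961 peaks of lowest p, the difference K27M minus control was -704 bp and -1.2 genes, in place of -1598 bp and -2.4 genes. Telencephalon minus brainstem controls was then 1851 bp and 1.17 genes, in place of 3340 bp and 3.17 genes. The part of enrichment and duplicates in the HoxC contrast was not tested.

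**Figure D4:**
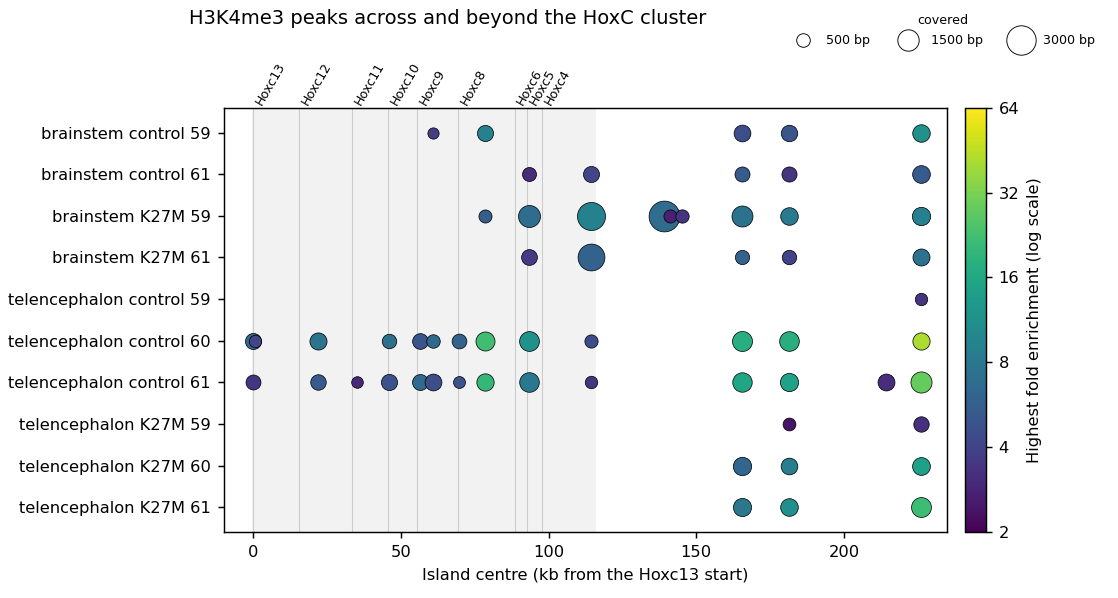
H3K4me3 peaks by library (rows) across the HoxC cluster (grey) and beyond it, at the centre of each island in kb from the Hoxc13 start; the colour gives the highest fold enrichment on a log scale, the size of the point the covered bp, and grey lines the protein-coding gene starts. Inside the cluster the 3 telencephalon K27M rows are empty, while at the last island, 226 kb from the Hoxc13 start, all 10 rows hold a point.

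Beyond Hoxc4 the marks met differently. An island 165 kb from the Hoxc13 start, in no annotated gene, had H3K4me3 in 8 of 10 libraries. An island over the non-coding genes Gm10830 and Gm28876, at 181 kb, had it in 9, and the one at D930007P13Rik in 10. Telencephalon culture 59 was absent from the first in both genotypes and from the second in the control. Only brainstem K27M culture 59 had 3 islands between 139 and 145 kb, the longest of them 3310 bp at the non-coding gene 5730585A16Rik. The 3 nearest protein-coding genes before Hoxc13 (Calcoco1, Atp5g2 and Atf7) had H3K4me3 in 10 of 10 libraries and H3K27me3 in 0. Of the 3 nearest after Hoxc4, Cbx5, which encodes a heterochromatin protein, and Hnrnpa1, which encodes a splicing factor, were the same, and Smug1, which encodes a DNA repair enzyme, had both marks in all 10.

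Of the non-coding genes inside the cluster, Hotair, a long RNA known for its links to Polycomb complexes, and Mir196a-2 had H3K27me3 in 10 of 10 libraries and H3K4me3 in 0. Mir615, within a Hoxc5 intron, had H3K4me3 in the same 5 libraries as Hoxc5. The mature RNAs are printed as RefSeq gives them on GRCm38.p6, with the seed (bases 2 to 8) in capitals. The miR-196a arm comes from chr15:102973365-102973386 and the miR-615 arm from chr15:103014969-103014990, both on the plus strand.
mmu-miR-196a-5p: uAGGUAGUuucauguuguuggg
mmu-miR-615-3p: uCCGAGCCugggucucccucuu
The seeds differ. Peaks cannot tell whether the H3K4me3 at Mir615 belongs to the microRNA or to Hoxc5, whose island spans both.

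Promoter states in controls were then read from consensus peaks, which need support from at least 2 cultures. In the brainstem all 9 genes carried H3K27me3 only and 0 were bivalent, against 9.28% bivalent among protein-coding genes. In the telencephalon 7 were bivalent, against 14.4%, and Hoxc11 and Hoxc12 carried H3K27me3 only. The telencephalon count rests on cultures 60 and 61. Without either of them it was 0, and the share among protein-coding genes was 4.93% without culture 60 and 4.83% without culture 61. When a peak in any control culture sufficed, Hoxc4, Hoxc5 and Hoxc6 were bivalent in the brainstem as well, against 19.2% of protein-coding genes. The regions were not tested against each other.

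CpG content did not sort the promoters by H3K4me3. The 15 promoter windows held 0.90 to 4.87 CpG per 100 bp, against a median of 2.13 over 101639 promoters of protein-coding genes. Hoxc12, with H3K4me3 in 0 of 10 libraries, had 4.80 per 100 bp, and Hoxc13, with 2 of 10, had 4.87. Hoxc4-201, with 5 of 10, had 2.83. The promoters without H3K4me3 at genes that had it elsewhere, Hoxc4-202 and Hoxc6-201, had 0.90 and 1.80.

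Of the 4 Hox clusters, HoxC alone was covered by H3K27me3 over its full length in all 10 libraries. By promoter, all 10 HoxB genes and all 9 HoxD genes also had an H3K27me3 peak in each library, and HoxA had 8 to 11 of 11. HoxB was covered over 84.3% to 96.4% in the 4 groups on average, and was fully covered in brainstem control 59. With genotypes averaged, HoxC had more in 5 of 5 cultures, by 8.63 ± 5.02 percentage points (SD, n = 5 cultures). Being at 100% in each library, HoxC could not have less than another cluster. A sign-flip test therefore cannot decide this, and no p is given. HoxA was covered over 63.4 ± 17.8% in brainstem controls and 85.2 ± 14.3% in brainstem K27M cultures (SD, n = 2 each), and over 99.2% to 100% in each telencephalon library. HoxD was fully covered in each telencephalon library and over 82.3% to 100% in the brainstem libraries. HoxC exceeded HoxA in both brainstem cultures, by 25.7 ± 1.76 percentage points (SD, n = 2), where an exact sign-flip test cannot give a p below 0.5.

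The H3K4me3 of the clusters differed most in the brainstem. It covered 33.5 ± 8.49% of HoxA in brainstem controls and 46.0 ± 15.2% in K27M cultures, against 1.02 ± 0.15% and 3.44 ± 0.95% of HoxC (SD, n = 2 each). HoxC had less than HoxA in 5 of 5 cultures, with a difference of -17.8 ± 18.2 percentage points (SD, n = 5 cultures, exact sign-flip permutation p = 0.063). Against HoxB the cultures were mixed, with HoxC lower in both brainstem cultures, higher in 2 of 3 telencephalon cultures and a difference of -4.72 ± 8.70 percentage points (SD, n = 5 cultures, exact sign-flip permutation p = 0.5). Against HoxD it was lower in 4 of 5 cultures, with a difference of -5.09 ± 4.36 percentage points (SD, n = 5 cultures, exact sign-flip permutation p = 0.125). Telencephalon culture 59 was at 0% in both clusters, and with this tie the test cannot give a smaller p. In telencephalon controls 60 and 61, H3K4me3 reached 11 and 11 of 11 HoxA genes, 4 and 2 of 10 HoxB genes and 7 and 9 of 9 HoxD genes, besides the 7 of HoxC. In the K27M cultures of these numbers it reached 4 and 4, 0 and 0, and 1 and 2 genes. The difference between genotypes in H3K4me3 coverage was not shown to differ between HoxC and the others (exact sign-flip permutation p = 1 for HoxA, 0.125 for HoxB and 1 for HoxD, n = 5 pairs).

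**Figure D5:**
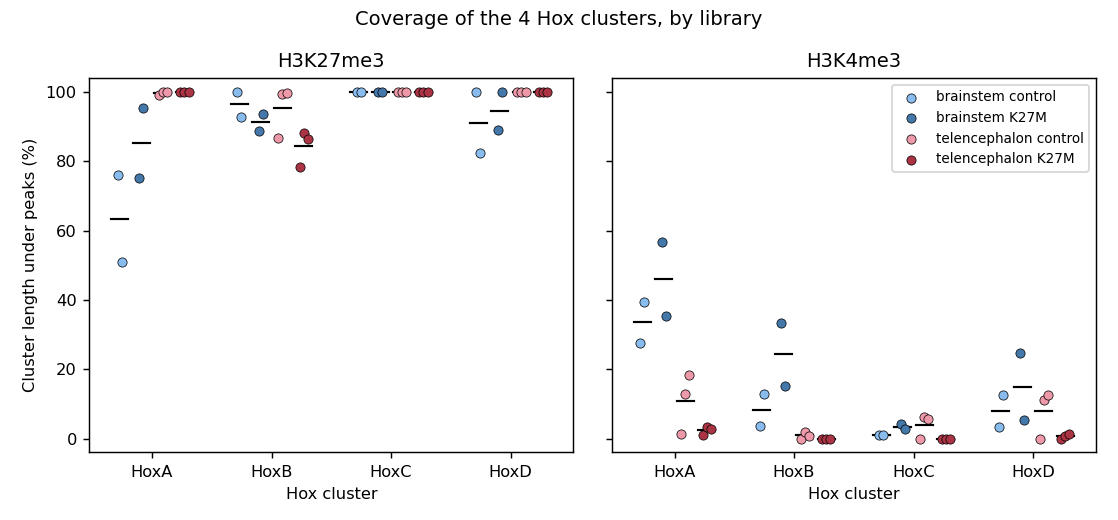
Share of each Hox cluster's length under H3K27me3 (left) and H3K4me3 (right) peaks, in percent; points are libraries, coloured by region and genotype, and black bars are group means. HoxC sits at 100% in all H3K27me3 libraries and at or below 6.11% in all H3K4me3 libraries.

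Genes that work with Hox factors or set their expression were read in the same way, from a list of 20. H3K4me3 was present in all 10 libraries at 14 of them, including the cofactor genes Meis1 and Pknox1, and in no library at 2. H3K27me3 was present in all 10 at 7 and in none at 6. The Hox activator gene Cdx2 had H3K27me3 in 10 of 10 libraries and H3K4me3 only in 2 of 3 telencephalon controls. The retinoic acid receptor gene Rara had both marks in 10 of 10.

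Outside the Hox clusters, the 5 protein-coding genes whose promoter coverage by both marks was closest to the mean of the 9 HoxC genes were Kcnk15, Slc6a5, Tmem91, 4930447C04Rik and Evx1. Their mean absolute difference over the 20 libraries was 41.9 bp for Kcnk15 and 51.2 bp for Evx1, the nearest and the farthest of the 5. Evx1 is a homeobox gene next to HoxA. All 5 had H3K27me3 in 10 libraries and H3K4me3 in 2 of 3 telencephalon controls and 0 of 3 telencephalon K27M cultures, and Kcnk15 and Tmem91 also had it in 1 of 2 brainstem K27M cultures. The likeness is a description and comes from the same libraries.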

How the data were processed

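H3K27me3 and H3K4me3 ChIP-seq peaks came from 20 deposited lists, grouped by their labels. Per the labels and the methods, reads were aligned by the authors to mm10 (BWA 0.7.17-r1188). MACS2 2.2.7.1 then called peaks in each library over the matching input. It was set to keep duplicates and, for H3K27me3, to a broad cutoff of 0.1. Replicates were not pooled. The deposited lists give each peak's fold enrichment over input (a ratio), together with −log10 values of a p-value and a q-value, all set by the authors. The score, the inputs and signal tracks were not used here. The peak files hold no read counts, so depth is not known from them and signal below the peak threshold was not measured.

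Peaks were merged within each library, and a gene was marked where at least 1 bp of a promoter was covered (Python 3.11.15, numpy 2.4.6, scipy 1.17.1). Promoters came from GENCODE M21 on GRCm38, sequences from GRCm38.p6 and RefSeq. K27M and control were compared over 5 matched cultures by two-sided exact sign-flip tests (32 arrangements), and regions over 10 splits of 2 and 3 cultures. Consensus peaks followed the MSPC rule named in the methods (p of 1e-10 and 1e-06 for H3K4me3, 1e-08 and 1e-04 for H3K27me3). All 9 members, the named non-coding and flanking genes, counts for regulators and the 5 most similar genes are given. The members, lists and tests were chosen with earlier results of these data known. The functions were tested on simulated data.

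The cultures are paired by their number, since the methods treat cultures as matched between conditions. As a check, deviations of promoter peaks from the group means correlated within pairs, over 22028 genes, at r = 0.55, 0.41 and -0.03 for H3K27me3 and 0.74, 0.43 and 0.52 for H3K4me3 in telencephalon cultures 59, 60 and 61. In the brainstem, where 2 pairs give 1 value, r was -0.11 and 0.07. Alternatives were stricter peaks, other windows and overlaps, equal numbers of peaks, no pairing and each culture left out. P-values measure the spread between these cultures.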

Additional observations from a re-analysis of the deposited data

How the results depend on the processing

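Of 178 alternative values, 166 kept their direction and their side of the threshold, or stayed within the spread between cultures or 1.5 times the count. For many of them this was fixed in advance. Differences in H3K27me3 coverage and promoter counts were 0 wherever the cluster stayed fully covered. The paired tests and those between regions cannot give a p under 0.05. The tally by itself therefore does not show robustness. Scaled to 1 Mb covered genome-wide, covered H3K27me3 length was 3228 bp higher in K27M (exact sign-flip p = 0.063), and 371 bp and 1117 bp higher in telencephalon than in brainstem controls and K27M cultures. The whole list is the denominator there, and the cluster itself stayed fully covered. With telencephalon cultures 60 and 61 left out together, an alternative chosen after seeing the data, the differences K27M minus control in H3K4me3 reversed to 1862 bp and 0.67 genes. The strongest H3K4me3 peak had a log2 difference of 0.25 over 2 brainstem pairs, since no telencephalon pair had peaks in both genotypes, and of -0.0077 without culture 61 and 0.52 without culture 59. The bivalent count in telencephalon controls moved from 7 to 0 with a peak required in every control, with cultures 59 and 61 alone, and without culture 60 or 61 (range 0 to 7). Over protein-coding genes the share moved from 14.4% to 4.72%, 4.93%, 4.93% and 4.83% in these settings. Bivalent protein-coding genes fell from 3179 to 1039, 1087, 1087 and 1065, while those with H3K27me3 only rose from 754 to 965, 974, 974 and 910. In brainstem controls the count of bivalent HoxC genes moved from 0 to 3 with a peak in any control, and the share over protein-coding genes from 9.28% to 19.2%. With equal numbers of peaks in each list, the H3K4me3 differences between genotypes and between the regions of controls were smaller by over 1.5 times, as given above, and that between the regions of K27M cultures stayed at -3978.5 bp.

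With single cultures left out, the HoxC H3K27me3 peak differed by 1.02 to 1.25 (log2), its length by -0.29 to -0.15 (log2), its Hoxc13 edge by -12.7 to -11.1 kb and its Hoxc4 edge by -31.6 to -9.82 kb. H3K4me3 coverage differed by -2921 to -228 bp and marked genes by -3.5 to -1.25 between genotypes. Telencephalon minus brainstem was 2065 to 5603 bp and 2 to 5.5 genes in controls and -4752 to -3205 bp in K27M. The measures of peak length and edges were added after seeing the data. Without the replicate block, in an exact permutation of genotypes within regions (120 arrangements), the Hoxc13 edge difference of -11.8 kb had p = 0.0167, the enrichment difference of 1.12 had p = 0.05 and the H3K4me3 difference of -1598 bp had p = 0.4. The paired test cannot go below 0.063, so neither the pairing by number nor a crossed brainstem pairing, added after seeing the data, could give a call under 0.05. With the 2 brainstem pairs crossed, the H3K27me3 peak was shorter and its Hoxc4 edge nearer in K27M in 5 of 5 pairs (exact sign-flip p = 0.063 for both), in place of 4 of 5, and the means were the same by construction.

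With 2 or 3 cultures a group no test here can pass 0.05 when paired or between regions. Peaks are presence calls whose number moves with library enrichment, and the lists hold no reads below threshold. An absent peak therefore says that no peak was called, not that the mark is absent.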
